A study of Mus musculus with 6 samples.

Results

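The Eph, ephrin, Slit, Robo and netrin genes are a set of 38 axon guidance genes. They were chosen by name, with earlier results of these data known. Of the 38, 37 were measured among the 53379 genes of the count table. The 38 comprised 24 receptors and 14 ligands. On one side were 9 EphA and 5 EphB receptors, 4 Robo receptors and 6 netrin receptors. On the other were 5 ephrin-A, 3 ephrin-B, 3 Slit and 3 netrin genes. Expression of Ntn3 was not analysed here. All 37 passed the filter on low counts, so 24 receptors and 13 ligands were among the 21244 genes tested. The samples were cortex of C57BL/6 mice at postnatal day 0. There were 3 libraries from animals labelled Npas3+/-, heterozygous at a transcription factor gene of the bHLH-PAS family, and 3 from wild-type (WT) animals. Both groups shared strain, age and tissue and had no other treatment. The labels do not say how the Npas3 allele was made and do not state whether each replicate is another animal; the p-values rest on the spread among these 6 libraries, which may be technical.

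Eph receptors are the largest family of receptor tyrosine kinases. Their ligands, the ephrins, are held at the cell surface, by a lipid anchor in the ephrin-A class and by a transmembrane segment in the ephrin-B class, so that signals pass between touching cells and can run in both directions. Slits are secreted proteins that mostly repel growth cones through Robo receptors. Netrins are secreted laminin-related proteins that attract axons through Dcc and repel them when Unc5 receptors take part. In the developing cortex these families are known for the sorting of thalamocortical and callosal axons and for the migration of neurons.

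Promoters are shown for the 6 members with a DESeq2 adjusted p under 0.05, whereas edgeR called 0 members. The composition of these promoters can be set beside the values that follow. Each run covers the 200 bases from 250 to 51 before a RefSeq start site (GRCm38.p6, the build also called mm10), 5′ to 3′ on the strand of the gene, and holds 0 bases of a GENCODE exon. Capitals mark the letters ACGTG or, on the other strand, CACGT, a core that bHLH-PAS proteins paired with Arnt are known to bind.
Ephb6, chr6:41605261-41605460, plus strand: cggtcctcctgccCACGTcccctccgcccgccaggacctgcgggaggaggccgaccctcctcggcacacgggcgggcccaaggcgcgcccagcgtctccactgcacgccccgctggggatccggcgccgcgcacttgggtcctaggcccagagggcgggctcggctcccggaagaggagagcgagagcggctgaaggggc
Efna2, chr10:80179232-80179431, plus strand: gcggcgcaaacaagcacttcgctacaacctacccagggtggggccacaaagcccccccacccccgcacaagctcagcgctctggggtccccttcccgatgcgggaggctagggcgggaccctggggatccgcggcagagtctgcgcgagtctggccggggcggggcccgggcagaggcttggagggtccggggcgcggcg
Efna3, chr3:89322990-89323189, minus strand: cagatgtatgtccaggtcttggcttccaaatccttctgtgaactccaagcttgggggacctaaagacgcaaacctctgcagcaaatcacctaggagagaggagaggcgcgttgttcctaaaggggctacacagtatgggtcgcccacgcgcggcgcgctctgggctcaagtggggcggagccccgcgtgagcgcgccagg
Epha3, chr16:63864226-63864425, minus strand: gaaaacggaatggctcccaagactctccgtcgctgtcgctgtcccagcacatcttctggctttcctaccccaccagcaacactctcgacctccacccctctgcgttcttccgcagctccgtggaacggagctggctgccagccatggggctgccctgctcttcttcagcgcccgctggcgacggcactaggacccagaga
Epha5, chr5:84417433-84417632, minus strand: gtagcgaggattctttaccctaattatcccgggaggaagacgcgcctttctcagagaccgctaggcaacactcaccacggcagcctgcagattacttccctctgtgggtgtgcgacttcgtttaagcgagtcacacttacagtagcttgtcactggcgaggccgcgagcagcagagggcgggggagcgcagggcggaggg
Slit2, chr5:47982905-47983104, plus strand: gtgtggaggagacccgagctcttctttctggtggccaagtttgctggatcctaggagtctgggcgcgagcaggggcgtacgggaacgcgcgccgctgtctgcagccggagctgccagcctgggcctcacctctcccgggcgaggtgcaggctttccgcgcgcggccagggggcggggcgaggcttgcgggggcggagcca
The first 3 belong to genes that stood higher in Npas3+/- cortex and the last 3 to genes that stood lower. In these runs the core was in Ephb6 alone, once. Over the full 250 bases before the start, it occurred in 5 of 38 windows of 33 members (13.2%), those of Epha4, Epha8, Ephb3, Ephb6 and one of Robo2, against 16.6% of the 32851 windows of all genes. The longer palindrome CACGTG, which contains both forms of the core, lay in 2 member windows, of Epha8 and Robo2, against 6.02% of all windows. The start site of that Robo2 window lies 1035468 bases from the GENCODE gene start. The Robo2 window at the gene start did not hold the core. Median GC content was 65.6% for member windows and 52.4% for all windows, and these shares were not adjusted for it. GC content of the printed runs was 76.5% for Ephb6, 73.5% for Efna2, 60.5% for Efna3, 63.0% for Epha3, 59.5% for Epha5 and 71.5% for Slit2, so the 2 directions overlapped in promoter composition.

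The libraries held 67378231 to 87811574 counts. Npas3 stood at 15.0, 14.1 and 8.61 CPM (counts scaled to library size by TMM) in Npas3+/- replicates 1 to 3, the order used throughout. In WT it stood at 23.4, 28.4 and 25.7 CPM, so the groups did not overlap. The log2 fold change was -1.04 (SE 0.20; edgeR adjusted p = 0.27, DESeq2 adjusted p = 7.84e-05). Cortical neuron markers were abundant in every library, with a summed level of 2778 to 3628 CPM in Npas3+/- and 2671 to 2936 CPM in WT. Of 15 markers of the neighbouring striatum 14 had negative log2 fold changes, with a summed level of 399 to 478 CPM in Npas3+/- and 424 to 663 CPM in WT, and none was at 0. The striatum score (the mean deviation of the log2 CPM of those markers) took values of -1.07, -1.19 and 0.38 for Npas3+/- and of 1.07, 1.36 and -0.55 for WT libraries. Of the 15 markers, Meis2 was the largest part of the sum, with a mean of 256 CPM over all libraries. Gad2 was the only one whose groups did not overlap (47.2 to 79.1 CPM in Npas3+/- and 88.2 to 122 CPM in WT). Whether the sum and score reflect striatum alone was not tested. Radial glia markers summed to 1065 to 1275 CPM in Npas3+/- and 1470 to 1524 CPM in WT, with 9 of 10 lower, and astrocyte markers to 220 to 274 and 310 to 350 CPM, with 8 of 9 lower. Microglia markers summed to 47.7 to 69.3 and 62.2 to 71.0 CPM, with 10 of 10 lower, and oligodendrocyte lineage markers to 331 to 349 and 289 to 330 CPM, with 3 of 10 lower. The part of these differences in the results below was not tested, except by a fit with the striatum score as a covariate. In bulk cortex, fewer cells of a type and less RNA per cell cannot be told apart.

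Members spanned a wide range of levels. On the scale of RPKM (CPM per kilobase of merged exon), Efnb3, a transmembrane ephrin, was highest with 68.7 ± 5.09 (SD over all 6 libraries), followed by Neo1, the neogenin receptor of netrins and repulsive guidance molecules, with 50.8 ± 3.87 RPKM. Ephb6, an Eph receptor whose kinase domain is inactive, had 39.9 ± 8.11 RPKM and Efnb2, a ligand of EphB receptors in neurons and arteries, 35.4 ± 2.01. Epha4, which binds ephrins of both classes, had 26.5 ± 2.47 RPKM and Efna3 25.1 ± 3.53. The ranges of Neo1, Ephb6 and Efnb2 overlapped from each gene to the next, whereas Efnb3 lay above Neo1 and Efnb2 above Epha4 in every library. In all, 31 of the 36 neighbours in this order overlapped. A total of 21 members exceeded 5 RPKM and 6 were under 1 RPKM, namely Robo4, Slit2, Robo3, Slit3, Epha2 and Epha1. Merged exons of Slit2, Unc5c and Epha5 ran to 25433, 19135 and 16739 bases, which lowers RPKM where most transcripts are shorter.

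The comparison of genotypes asked how levels of guidance receptors and ligands differ between Npas3+/- and WT cortex. DESeq2 called the EphA receptors Epha3 and Epha5 and the ligand Slit2 lower in Npas3+/- cortex, and the receptor Ephb6 and the ephrins Efna2 and Efna3 higher, with folds between 0.614 and 1.40. In edgeR's quasi-likelihood test with Benjamini-Hochberg adjustment over all genes, 0 of 37 members passed at 0.05, where 0.0377% of all genes did, and the smallest adjusted p was 0.27. At an unadjusted p under 0.05 there were 11 members (29.7%), against 12.1% of all genes: 8 lower (21.6%, against 5.84%) and 3 higher (8.11%, against 6.29%). DESeq2 called 6 of the 35 members with an adjusted p (17.1%), against 2.77% of all genes: Ephb6, Efna2 and Efna3 higher (1.45% of all genes) and Epha3, Epha5 and Slit2 lower (1.32%). The groups did not overlap for 11 members (29.7%), against 18.9% of all genes, with 8 lower (9.18% of all genes) and 3 higher (9.7%). With the striatum score as a covariate 4 members were at an unadjusted p under 0.05 where all genes gave 6.21%. Without Npas3+/- replicate 2 there were 7, where all genes gave 8.15%, and without WT replicate 2 also 7, where all genes gave 7.82%. Xist, a transcript of female cells, stood at 3667 CPM in Npas3+/- replicate 2 and at most 2.02 CPM in the others. The genotypes were thus not balanced for Xist. With only genes of 1 CPM or more in 3 libraries the share of all genes at an unadjusted p under 0.05 was 15%, against 11 of 35 members.

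**Figure D1:**
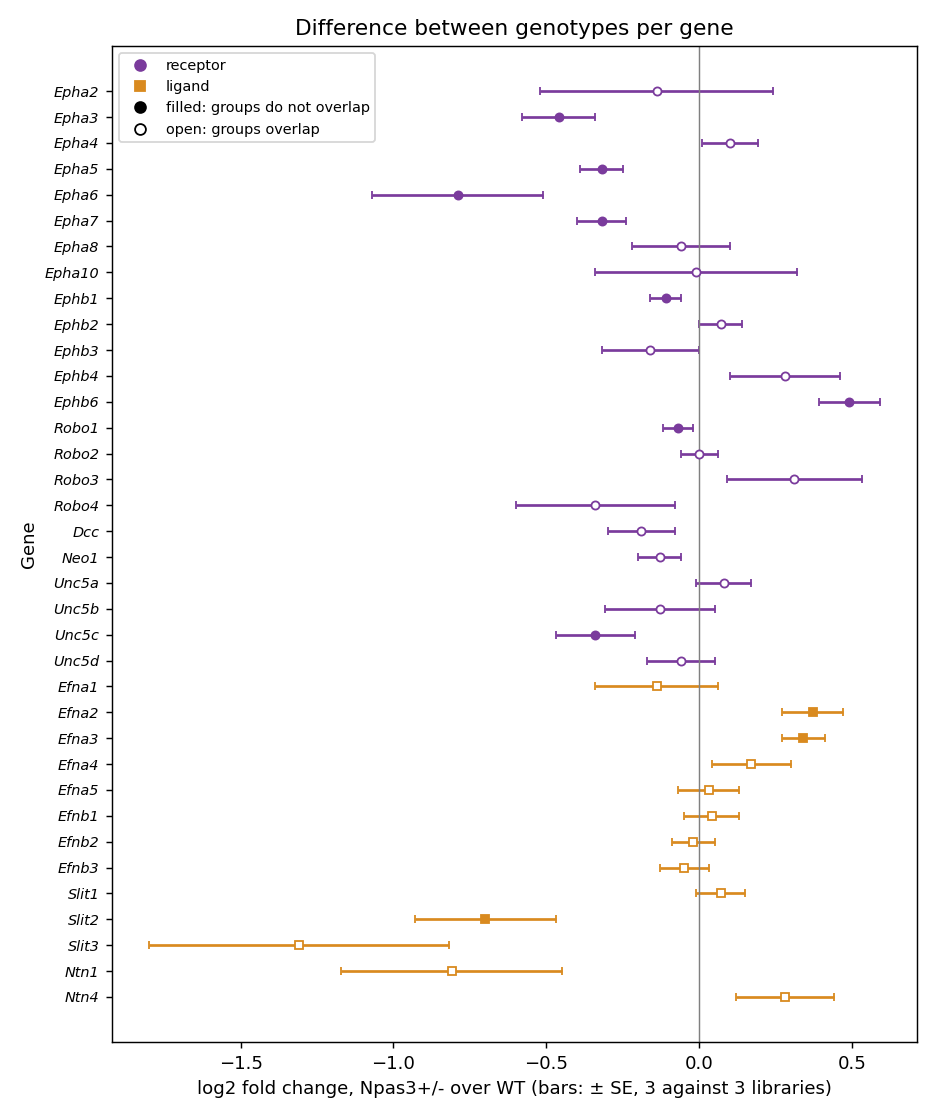
Log2 fold change of Npas3+/- over WT (x axis) for 36 members (y axis), with bars of 1 SE from edgeR; Epha1, with an SE of 1.40, is left out. Circles are receptors and squares ligands, filled where the 3 values of one genotype all lie beyond those of the other, as for Ephb6 (0.49), Efna2 (0.37), Epha3 (-0.46) and Slit2 (-0.70).

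Fold changes below 0 were more frequent among receptors than among ligands, a difference that was not tested. Of 24 receptors 17 had log2 fold changes below 0, with a median of -0.09, and of 13 ligands 6 did, with a median of 0.03, while 51.8% of all genes lay below 0 with a median of -0.01. With the striatum score as a covariate 13 receptors were below 0 (median -0.03), and with the GC trend of each library removed 8 ligands were (median -0.03). The share at an unadjusted p under 0.05 was 7 of 24 receptors (29.2%) and 4 of 13 ligands (30.8%). The lowest fold change (Slit3, -1.31) belonged to a ligand. Leaving aside the thinly counted Epha1, the highest belonged to the receptor Ephb6 (0.49), followed by the ligands Efna2 and Efna3.

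Among the 9 EphA receptors, which mostly bind ephrin-A ligands, 7 had fold changes below 0 and 4 were separated between genotypes, all lower in Npas3+/- cortex. Epha5 (mm10 chromosome 5, 84054761 to 84417382), a receptor of ephrin-A5 in forebrain axon mapping, stood at 196, 196 and 222 CPM in Npas3+/- and at 240, 263 and 263 CPM in WT. Every Npas3+/- library lay below every WT library. The log2 fold change was -0.32 (SE 0.07; edgeR adjusted p = 0.27; DESeq2 adjusted p = 0.0188). Epha3 (chromosome 16, 63543534 to 63864175), another high-affinity receptor of ephrin-A ligands, stood at 58.6, 72.8 and 78.4 CPM in Npas3+/- and at 93.1, 89.2 and 106 CPM in WT. Its groups did not overlap either, with Npas3+/- replicate 1 the lowest, and its log2 fold change was -0.46 (SE 0.12; edgeR adjusted p = 0.276, DESeq2 0.0178). Epha7 (chromosome 4, 28813131 to 28967499), known in cortical progenitors and corticothalamic mapping, stood at 92.3, 105 and 107 CPM against 128, 134 and 115 CPM in WT. The highest Npas3+/- value was close to WT replicate 3, and the log2 fold change was -0.32 (SE 0.08; edgeR adjusted p = 0.276, DESeq2 0.0521), or -0.20 with the striatum score as a covariate.

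Epha6 (chromosome 16, 59653483 to 60605531) was the least abundant of these 4, with 6.43, 4.67 and 10.2 CPM in Npas3+/- and 10.9, 14.8 and 10.9 CPM in WT. Npas3+/- replicate 3 was within 1 CPM of 2 WT libraries, so the separation was narrow. The log2 fold change of -0.79 (SE 0.28; edgeR adjusted p = 0.351) became -0.41 with the striatum score as a covariate, whereas those of Epha3 and Epha5 stood at -0.47 and -0.28 in that fit. The other EphA receptors showed no such separation. Epha4, the most abundant of the class per length, stood at 193, 225 and 245 CPM in Npas3+/- and at 220, 195 and 205 CPM in WT. Its groups overlapped and its log2 fold change was 0.10 (SE 0.09, edgeR adjusted p = 0.721). Epha8 (-0.06, SE 0.16), Epha10, whose kinase domain is inactive (-0.01, SE 0.33), and Epha2, known from epithelia (-0.14, SE 0.38, at 0.585 to 1.09 CPM), overlapped between groups. Epha1 gave 17, 16 and 7 reads for Npas3+/- and 13, 0 and 0 for WT, too few to compare, and 6.01% of its exon length is shared with Zyx on the opposite strand.

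**Figure D2:**
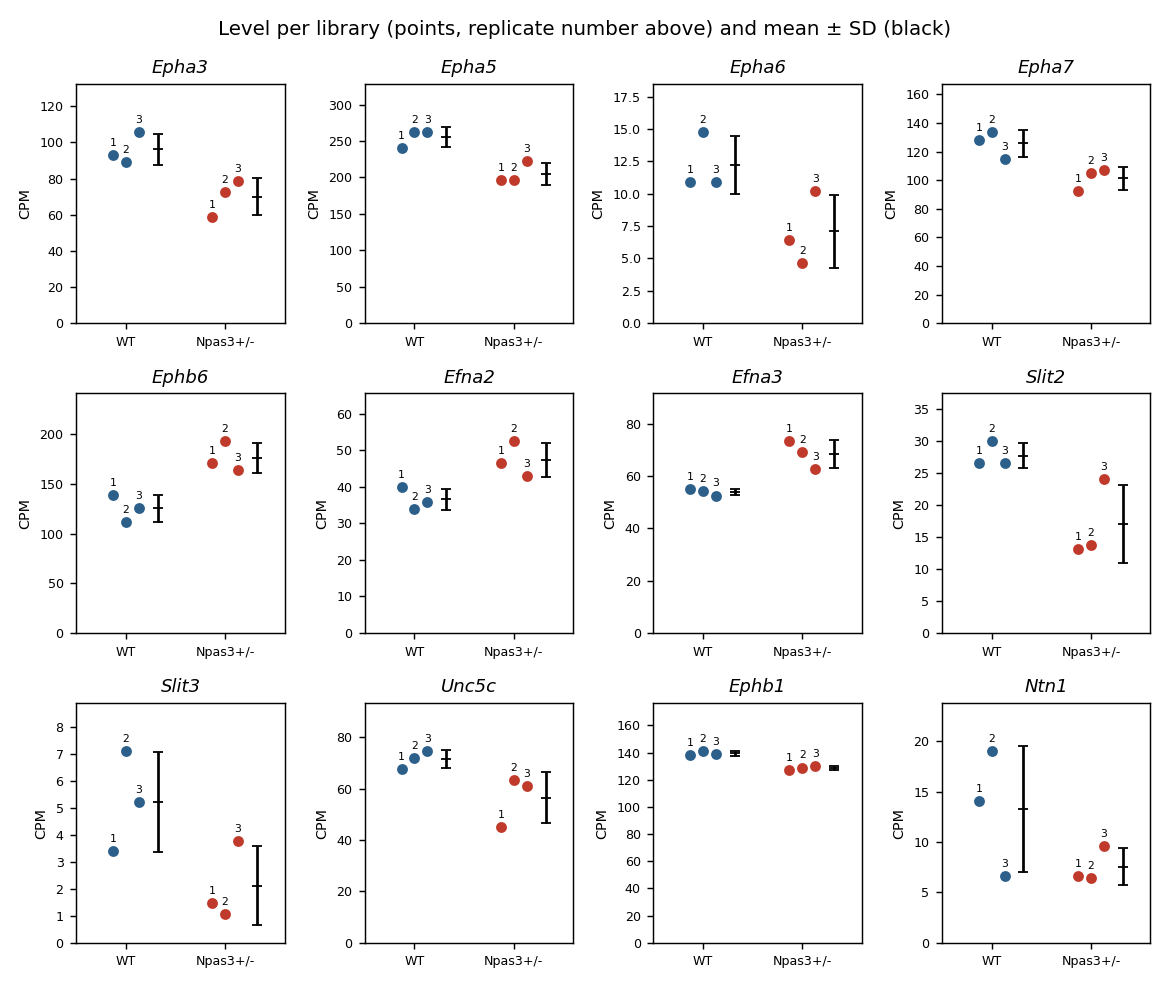
Level in CPM (y axis, from 0) of 12 members in the 3 WT (blue) and 3 Npas3+/- (red) libraries, numbered by replicate, with the mean ± SD in black. Epha3, Epha5, Epha6 and Epha7 lie lower in every Npas3+/- library, Ephb6, Efna2 and Efna3 higher, and Npas3+/- replicate 3 is the closest to WT for Slit2 (24.1 CPM) and Slit3 (3.79 CPM).

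EphB receptors, which bind ephrin-B ligands, did not share a direction. Ephb6 (chromosome 6, 41605482 to 41620509) had the smallest p of all members and the highest level of its class. It stood at 171, 193 and 164 CPM in Npas3+/- and at 139, 112 and 126 CPM in WT. All 3 Npas3+/- values exceeded the highest WT value. This was 176 ± 15.4 against 125 ± 13.7 CPM (SD, n = 3), a fold of 1.40 (log2 fold change 0.49, SE 0.10; edgeR adjusted p = 0.27, DESeq2 0.00161). In the 6 fits that each left out 1 library the log2 fold change ran from 0.41 to 0.57.

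Ephb1 (chromosome 9, 101922128 to 102354693), a receptor of retinal and cortical axons, varied least within genotypes. It stood at 127, 129 and 130 CPM in Npas3+/- and at 138, 141 and 139 CPM in WT, so that a difference of 0.925-fold left no overlap. Its log2 fold change was -0.11 (SE 0.05, edgeR adjusted p = 0.391, DESeq2 0.484). Ephb2, a synaptic and axonal receptor (0.07, SE 0.07), Ephb3, its close relative in callosal guidance (-0.16, SE 0.16), and Ephb4, the venous receptor of ephrin-B2 (0.28, SE 0.18), overlapped between genotypes. Ephb4 stood at 7.55 to 9.22 CPM in Npas3+/- and 5.42 to 8.28 CPM in WT, while 10 endothelial markers summed to 148 to 152 and 145 to 158 CPM.

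Ephrin-A genes leaned the other way from the EphA receptors, with 4 of 5 above 0 and 2 separated between genotypes. Efna3 (chromosome 3, 89313899 to 89322965), the most abundant of the class, stood at 73.3, 69.1 and 62.7 CPM in Npas3+/- and at 54.9, 54.5 and 52.6 CPM in WT. The WT libraries lay within 3 CPM of each other and below every Npas3+/- library. The log2 fold change was 0.34 (SE 0.07; edgeR adjusted p = 0.272, DESeq2 0.0211). A non-coding gene on the opposite strand, Gm15998, shares 14.1% of its exon length, and without knowledge of strand their reads cannot be told apart. Efna2 (chromosome 10, 80179482 to 80190010), which has a role in retinotectal mapping, stood at 46.6, 52.4 and 43.0 CPM against 39.8, 34.0 and 35.8 CPM in WT. It too was higher in each Npas3+/- library, with a log2 fold change of 0.37 (SE 0.10; edgeR adjusted p = 0.276, DESeq2 0.0432).

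Efna5, the ephrin best known for thalamocortical maps, was level between genotypes, at 23.3, 29.0 and 25.9 CPM in Npas3+/- and 25.9, 25.2 and 25.7 CPM in WT (log2 fold change 0.03, SE 0.10). Efna4 stood at 14.6 to 16.9 CPM and 12.1 to 15.6 CPM in WT (0.17, SE 0.13), with 10.5% of its exon length under an opposite-strand transcript. Efna1, an ephrin of vessels and epithelia, stood at 3.06 to 4.06 and 3.25 to 4.37 CPM (-0.14, SE 0.20). Of the ephrin-B genes, which include the most abundant ligand per length, 0 of 3 were separated. Efnb3 stood at 235, 192 and 216 CPM in Npas3+/- and at 212, 236 and 221 CPM in WT (-0.05, SE 0.08, edgeR adjusted p = 0.838). Efnb2 had a log2 fold change of -0.02 (SE 0.07). The X-linked Efnb1 had 0.04 (SE 0.09), and its level in the library with Xist, 57.1 CPM, was between those of WT replicates 2 and 1 (52.9 and 59.6 CPM).

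**Figure D3:**
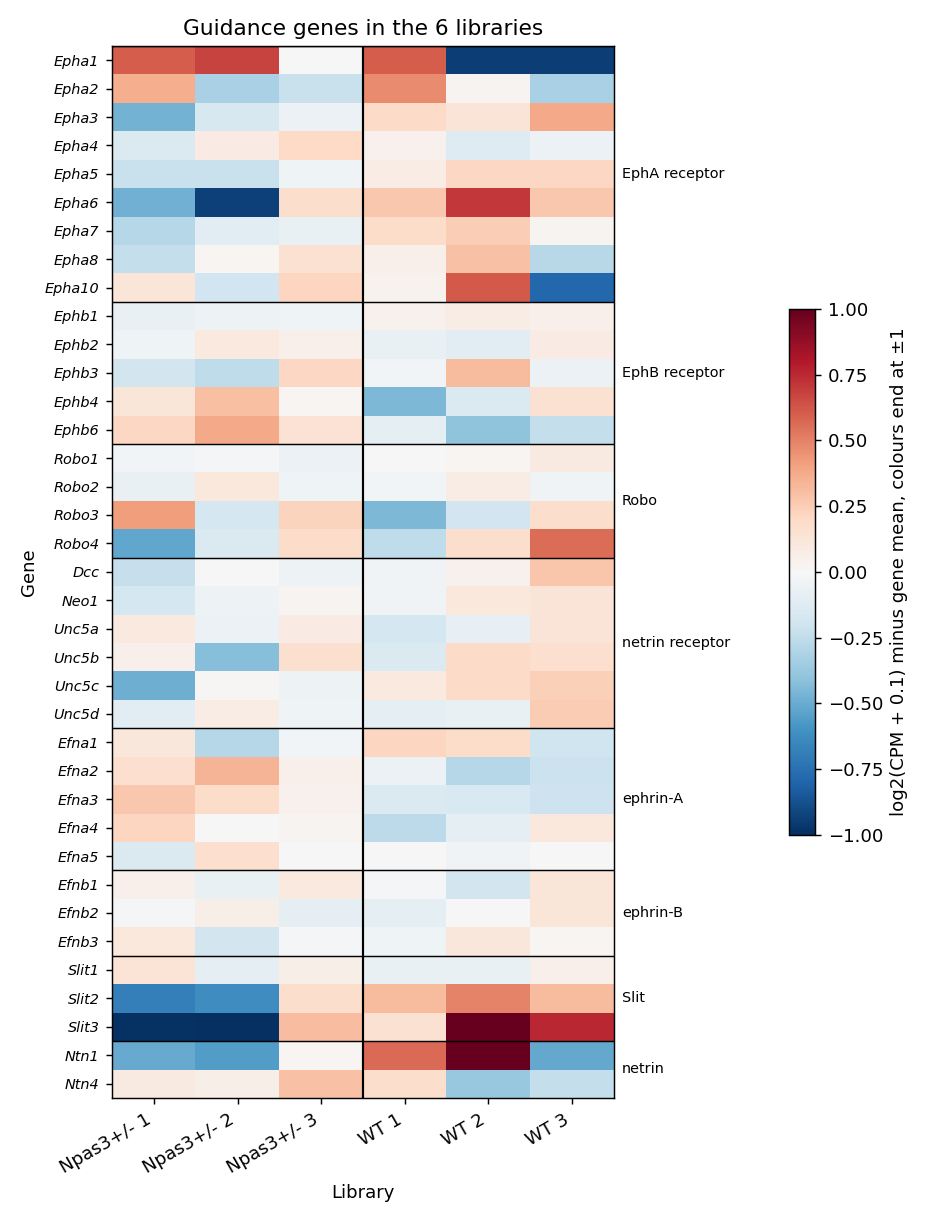
Deviation of log2(CPM + 0.1) from the mean of the gene over 6 libraries, in colour (red higher, blue lower, ending at ±1), for 37 members (rows, grouped by class) and the 6 libraries (columns, Npas3+/- left of the line). The blue cells of Slit2, Slit3 and Epha6 are in Npas3+/- replicates 1 and 2, whereas replicate 3 is close to WT.

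Ligand and receptor levels were also set against each other within each library, a measure chosen after the values of single genes were seen and given as a description. RPKM summed over the EphA receptors was 60.0, 67.3 and 74.1 for Npas3+/- and 75.6, 76.5 and 73.2 for WT. Summed over the ephrin-A genes it was 70.6, 71.0 and 63.6 against 57.6, 55.4 and 56.2 in WT. The ratio of ephrin-A to EphA RPKM was therefore 1.18, 1.05 and 0.858 in Npas3+/- and 0.762, 0.724 and 0.768 in WT, with no overlap and with replicate 3 nearest to WT. With the GC trend of each library removed it was 1.15, 1.04 and 0.815 against 0.797, 0.752 and 0.783, so that replicate 3 came close to WT replicate 1. Efna3 and Efna2 made up 28.1 and 22.2 of the mean summed 68.4 RPKM of ephrin-A genes in Npas3+/-. In WT they made up 22.2 and 17.1 of 56.4 RPKM. The EphA sums overlapped between genotypes. Epha4, their largest part, had 27.4 of 67.1 RPKM in Npas3+/- and 25.6 of 75.1 RPKM in WT.

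The ratio of ephrin-B to EphB RPKM was 1.64, 1.34 and 1.55 in Npas3+/- and 1.67, 1.95 and 1.85 in WT. Npas3+/- replicate 1 and WT replicate 1 were almost equal, although the groups did not overlap. Ephb6 alone made up 46.6 of the summed 80.1 RPKM of EphB receptors in Npas3+/- and 33.2 of 67.5 RPKM in WT. The ratio of Slit to Robo RPKM was 0.458, 0.370 and 0.453 against 0.418, 0.416 and 0.436 in WT, and that of netrins to their receptors 0.0600, 0.0554 and 0.0659 against 0.0753, 0.0645 and 0.0419. Both of these overlapped between genotypes.

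**Figure D4:**
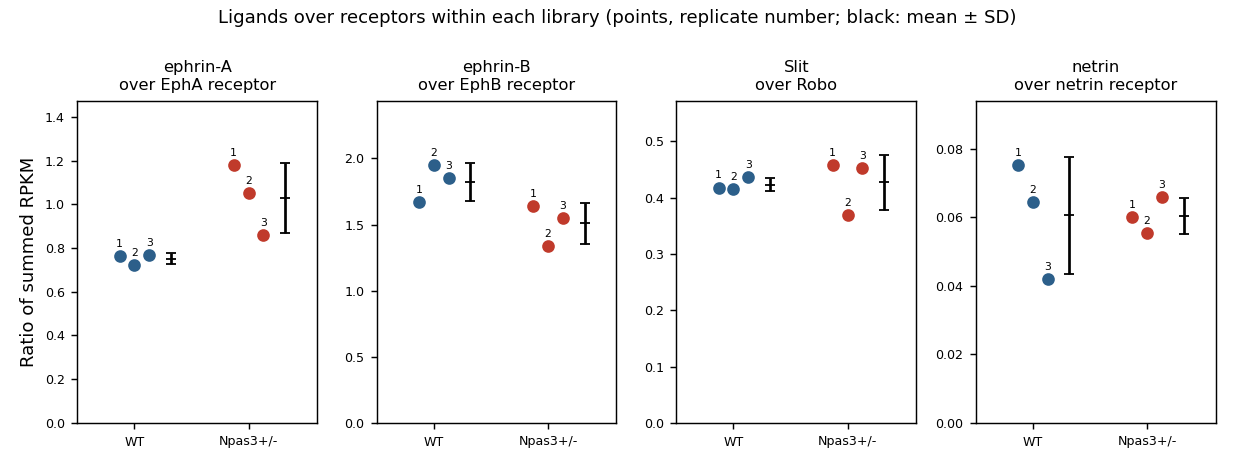
Ratio of summed ligand RPKM to summed receptor RPKM within each library (y axis, from 0) for 4 families, with WT in blue, Npas3+/- in red, replicate numbers above the points and the mean ± SD in black. For ephrin-A over EphA the Npas3+/- libraries lie between 0.858 and 1.18 and the WT libraries between 0.724 and 0.768.

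The Slit genes, whose products are secreted repellents, divided by abundance. Slit2 (chromosome 5, 47983138 to 48307733), a midline repellent of callosal and corticofugal axons, stood at 13.2, 13.8 and 24.1 CPM in Npas3+/- and at 26.6, 30 and 26.6 CPM in WT. Npas3+/- replicates 1 and 2 were at about the same level and replicate 3 was just below WT. The log2 fold change was -0.70 (SE 0.23; edgeR adjusted p = 0.316; DESeq2 0.032). Without Npas3+/- replicate 3 it was -1.03 (edgeR adjusted p = 0.063), without replicate 1 or 2 it was -0.55 or -0.57, and with the striatum score as a covariate -0.42 (edgeR adjusted p = 0.796). Slit3 (chromosome 11, 35121224 to 35708507) stood at 1.49, 1.07 and 3.79 CPM against 3.40, 7.11 and 5.21 CPM in WT. Npas3+/- replicate 3 lay above WT replicate 1, so the groups overlapped. The log2 fold change was -1.31 (SE 0.49, edgeR adjusted p = 0.365). It was -2.03 without Npas3+/- replicate 3, -0.99 without replicate 2 and -0.91 with the striatum covariate.

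Slit1, the most abundant Slit, stood at 89.3, 76.2 and 84.5 CPM in Npas3+/- and at 77.2, 77.2 and 84.2 CPM in WT. It did not follow Slit2 and Slit3: its groups overlapped, with a log2 fold change of 0.07 (SE 0.08) that was -0.02 with the GC correction. Among the Robo receptors, Robo2, the most abundant, stood at 286, 324 and 293 CPM in Npas3+/- and at 295, 317 and 294 CPM in WT (means of 301 ± 20.5 and 302 ± 12.8, SD, n = 3). Robo1, its partner in corticothalamic and callosal guidance, stood at 264, 266 and 259 CPM against 269, 273 and 286 CPM. Its groups did not overlap, but the log2 fold change was -0.07 (SE 0.05, edgeR adjusted p = 0.59). Robo3, the receptor of commissural hindbrain axons (0.31, SE 0.22), and Robo4, an endothelial receptor (-0.34, SE 0.26), were under 8 CPM in every library and overlapped between genotypes.

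Of the netrins, Ntn1 (chromosome 11, 68209364 to 68400823), the classical attractant, stood at 6.66, 6.40 and 9.63 CPM in Npas3+/- and at 14.1, 19.0 and 6.63 CPM in WT. WT replicate 3 was as low as Npas3+/- replicates 1 and 2, and the order of the libraries resembled that of the striatum score. The log2 fold change was -0.81 (SE 0.36, edgeR adjusted p = 0.427), and 0.04 with that score as a covariate. Leaving out WT replicate 2 gave -0.46 and leaving out WT replicate 3 gave -1.13. Ntn4, a basement membrane netrin and the most abundant one per length, stood at 13.2, 12.9 and 15.2 CPM against 14, 9.52 and 10.5 CPM. It overlapped between groups, with a log2 fold change of 0.28 (SE 0.16, edgeR adjusted p = 0.54).

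Of the 6 netrin receptors 5 had fold changes below 0 and only Unc5c was separated. Unc5c (chromosome 3, 141465216 to 141834924), which turns netrin into a repellent, stood at 45.1, 63.5 and 60.9 CPM in Npas3+/- and at 67.6, 72.1 and 74.6 CPM in WT. Npas3+/- replicate 1 was well below the other 2, and the log2 fold change was -0.34 (SE 0.13; edgeR adjusted p = 0.368, DESeq2 0.153), or -0.20 without that library. Neo1, the most abundant of this class, stood at 392, 426 and 451 CPM against 431, 475 and 483 CPM in WT. Its highest Npas3+/- library lay above WT replicate 1, and the log2 fold change was -0.13 (SE 0.07, edgeR adjusted p = 0.497). Dcc, the attractive netrin receptor, stood at 36.4 to 42.9 CPM against 41.8 to 51.8 CPM (-0.19, SE 0.11). Unc5a (0.08, SE 0.09), Unc5b of vessels and neurons (-0.13, SE 0.18) and Unc5d of upper-layer neurons (-0.06, SE 0.11) overlapped as well.

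Gene span and transcript GC content were set beside the fold changes, since the choice of genes did not use them. The 4 separated EphA receptors are long genes with AT-rich transcripts: Epha3, Epha5, Epha6 and Epha7 span 321, 363, 952 and 154 kb with a transcript GC content of 43.2, 43.6, 47.7 and 43.2%. Slit2 and Unc5c span 325 and 370 kb with 46.9 and 45.3% GC. Other members with negative fold changes lay above the median GC of all genes (49.5%), namely Ephb1 with 51.8%, Slit3 with 55.0% and Ntn1 with 58.9%. Ephb6, Efna2 and Efna3 span 15.0, 10.5 and 9.07 kb with 59.5, 58.5 and 58.2% GC. Over all genes the median log2 fold change went from -0.09 in the lowest GC quintile to 0.08 in the highest. All 4 members of the lowest quintile were below 0 (median -0.32) and 10 of 18 in the highest were above (median 0.05). Of the 20 members in the top quintile of gene span 15 were below 0 (median -0.13), while over all genes that quintile had a median of -0.02. With the GC trend removed from each library, the log2 fold changes were -0.40 for Epha3, -0.26 for Epha5, -0.25 for Epha7, -0.67 for Slit2, 0.40 for Ephb6, 0.30 for Efna2 and 0.26 for Efna3. The directions of these 7 were kept, with 11 members at an unadjusted p under 0.05 in edgeR, where all genes gave 10.4%. Robo2 (520 kb, 42.7% GC) and Epha4 (148 kb, 47.5%) are also long genes with AT-rich transcripts, and their groups overlapped.

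**Figure D5:**
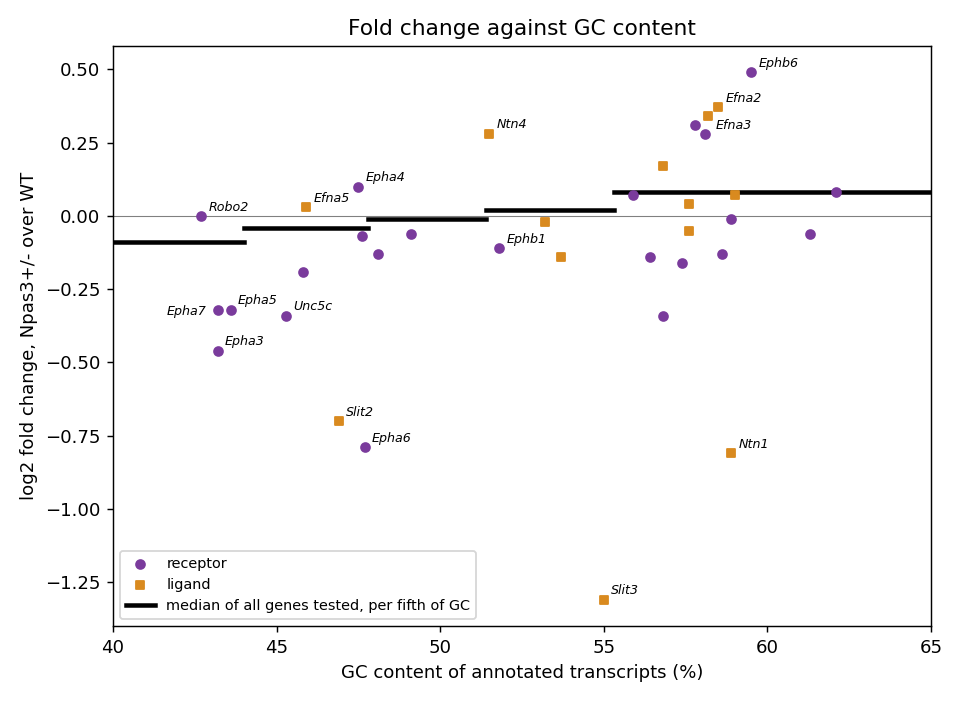
Log2 fold change of Npas3+/- over WT (y axis) against the GC content of annotated transcripts in percent (x axis) for 36 members, receptors as circles and ligands as squares; Epha1 is left out, and the outer quintiles run beyond the axis. Black lines are the medians of all genes tested in each quintile of GC, from -0.09 to 0.08. Farthest from 0 are Slit3 (55.0% GC, -1.31), Ntn1 (58.9% GC, -0.81), Epha6 (47.7% GC, -0.79) and Slit2 (46.9% GC, -0.70). Nearer to 0 are Ephb6 (59.5% GC, 0.49), the highest plotted, and Epha3 (43.2% GC, -0.46).

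Of 54 other genes that act with these receptors (such as adaptors and other ligands), 53 were tested and 0 passed in edgeR over all genes. They had a median log2 fold change of 0.02, with 27 above and 26 below 0. At an unadjusted p under 0.05 there were 11, 7 higher and 4 lower, against 6.29% and 5.84% of all genes. Flrt3, a membrane ligand of Unc5 receptors and a partner of Robo1, had the smallest p. Flrt3 stood at 32.2, 31.6 and 44.8 CPM in Npas3+/- and at 50.5, 54.4 and 57.4 CPM in WT, with no overlap (log2 fold change -0.58, SE 0.14; edgeR adjusted p = 0.276, DESeq2 0.00718), and was the only one DESeq2 called. Cbln4, a secreted protein that binds neurexins and Dcc, stood at 2.20, 0.780 and 4.75 CPM against 6.96, 8.74 and 11.4 CPM (-1.81, SE 0.56). Grip1, a scaffold of ephrin-B and AMPA receptors, stood at 56.3 to 58.5 against 61.2 to 71.4 CPM (-0.22, SE 0.07). On the other side were Arhgap39, known to bind Robo (0.23, SE 0.06), Vav3, an exchange factor downstream of Eph receptors (0.36, SE 0.12), and Ptpro, a phosphatase that acts on Eph receptors (0.27, SE 0.10). In each of these 6, picked for the smallest p, the 3 Npas3+/- values lay on one side of WT. Among the 53 tested, the groups did not overlap for 12, against 18.9% of all genes.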

How the data were processed

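RNA of 6 newborn mouse cortex samples was sequenced, and raw gene counts of all libraries were deposited by the authors in 1 table. The tools named in the submitters' processing notes are featureCounts, HISAT2 2.1.0 and Trimmomatic 0.3.8, with build mm10. Strand setting, handling of multi-mapping reads and annotation release are not given in the sources used here. Columns named NP were taken as Npas3+/-, the only genotype besides WT. Gene identifiers were matched without version to GENCODE M21 (53274 of 53379).

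Counts were analysed with edgeR 4.0.16 in R 4.3.3: filterByExpr, TMM scaling, and glmQLFit and glmQLFTest with genotype as the only term, on all 21244 genes kept. P-values were adjusted by Benjamini-Hochberg (threshold 0.05). SE is the absolute log2 fold change over the root of the F statistic. With 3 against 3 libraries an exact permutation test cannot give a p below 0.1 and was not used. RPKM uses merged exon length. GC correction used a lowess (span 0.4) of log2 CPM (prior count 2) per library. DESeq2 1.42.0 and limma-voom 3.58.1 ran as alternatives. Over all 15 pairs of libraries, counts differed by a chi-square of at least 42.2 per gene. The edgeR fit was also run on simulated counts with known changes, which were larger than most changes of members given here.

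Members and lists were chosen with earlier results of these data known. Values per library and tests are given for the 12 members with the smallest p, the highest per length in each of 8 classes, separated members against their class, and the 6 partner genes with the smallest p. Promoters are from RefSeq.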

Additional observations from a re-analysis of the deposited data

How the results depend on the processing

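DESeq2 called 6 members where edgeR called 0 under each of its settings and limma-voom called 0. The number of members at an unadjusted p under 0.05, 11, was 4 with the striatum score as a covariate (6.21% of all genes in that fit) and 7 to 13 with 1 library left out (7.82 to 13.7% of all genes), with 7 without Npas3+/- replicate 2 and 7 without WT replicate 2; this count was examined after seeing the data. The median log2 fold change of all members, -0.06, was 0 with the striatum covariate, and that of partner genes, 0.02, was -0.01 with the GC correction and ran from 0 to 0.05 with 1 library left out. The ligand median, 0.03, turned to -0.03 with the GC correction, -0.02 with the block and GC correction and -0.01 without WT replicate 2, and the receptor median stayed below 0 in all fits run; these moves were smaller than the spread between libraries. Among the members with full values per library, direction turned for Ntn1 (0.04 with the striatum covariate), Slit1 (-0.02 with the GC correction, alone or with the block), Efnb3 (from -0.12 to 0.02 with 1 library left out) and Robo2 (0.06 with the GC correction, alone or with the block, and from -0.06 to 0.03 with 1 library left out). Of the remaining members, Epha2 (0.04), Epha8 (0.23), Epha10 (0.68), Ephb3 (0.09), Efna1 (0.06) and Efnb1 (-0.01) turned with the striatum covariate, Efnb1 (-0.03) and Unc5a (-0.03) with the GC correction, and Epha2, Epha8, Epha10, Efna5, Efnb1, Efnb2, Unc5b and Unc5d in at least 1 fit with a library left out. Epha10 also turned with limma-voom (0.07) and the block (0.09, or 0.01 with the GC correction). The cause was not tested. Libraries of the same replicate number did not deviate together (r of 0.0368, -0.03 and -0.0879 across genes). With 3 pairs this cannot exclude a weak shared batch, and the replicate number was not taken as a pairing in the main fit. Over all genes edgeR called 8, but 3 with the block, 5 with the striatum covariate and 16 without WT replicate 1, and DESeq2 called 425. With that number as a replicate block 0 members were called and 11 were at an unadjusted p under 0.05 (10.2% of all genes). Depth limits Epha1 and Epha2, at 0 to 88 reads per library.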
